A study of Mus musculus with 25 samples.

Results

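The genes described here are the nuclear genes of the mitochondrial respiratory chain and the ATP synthase. They were chosen by symbol, as the genes of both RNA tables whose names begin with Ndufa, Ndufb, Ndufc, Ndufs, Ndufv, Uqcr, Cox4 to Cox8 or Atp5, leaving out pseudogene and predicted names. The rule gave 85 members among the 19434 symbols that the tables shared. Of these, 43 belong to complex I (7 core subunits, 29 accessory subunits and 7 assembly factors), 8 to complex III, 20 to complex IV (12 common subunits and 8 tissue isoforms) and 14 to complex V, the ATP synthase. A further 9 matching symbols occurred only in the stem cell table and 3 only in the embryo table, some of them as older and newer names of 1 gene, and these are not analysed here. Complex II, cytochrome c and the subunits that mitochondrial DNA encodes fall outside the rule, so the members are most but not all of the chain.

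RNA was measured in v6.5 mouse embryonic stem cells (mESCs), in 3 libraries of wild-type cells (WT) and 2 of cells lacking Dot1L (knockout, KO), none of them treated. It was also measured in wild-type 8-cell embryos of the cross B6D2F1 x Cast/EiJ, in 2 pools given DMSO and 2 pools given the Dot1L inhibitor SGC0946, each pool being 30 to 35 embryos collected 56 hours after fertilization. Chromatin immunoprecipitation gave lists of H3K79me2 and H3K79me3 peaks from 2 WT and 2 KO mESC libraries per mark. The labels do not say whether the KO libraries come from 1 clone or from separate clones or cultures, or give a dose or duration for the inhibitor, so p-values measure only the spread between these libraries, which may be technical. In bulk RNA, fewer cells of a type and less RNA per cell cannot be told apart.

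The respiratory chain moves electrons from NADH and succinate to oxygen through complexes I to IV while complexes I, III and IV pump protons out of the mitochondrial matrix, and complex V uses the returning protons to make ATP. Nearly all subunits are encoded in the nucleus and imported, and their genes are expressed in almost every cell, with tissue-specific isoforms of some complex IV subunits in muscle, lung and testis. Dot1L methylates lysine 79 of histone H3 in the transcribed bodies of active genes, mostly just downstream of the start. Pluripotent stem cells are known for a high rate of glycolysis beside respiration, and cleavage-stage embryos for their reliance on mitochondrial ATP.

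The libraries held 26860527 to 33755064 estimated counts in mESCs and 24950199 to 32479590 counts in embryos, and the members together took 0.627 to 0.632% of all counts in WT, 0.667 to 0.668% in KO and 0.495 to 0.538% in the embryo pools. With TMM factors applied, their summed level was 6437 to 6556 CPM (counts scaled to the size of each library) in WT and 6293 to 6482 CPM in KO. Dot1l RNA itself stood at 104.3, 96.9 and 99.2 CPM in WT and at 81.4 and 71.5 CPM in KO, a log2 fold change of -0.39 (SE 0.059, adjusted p = 0.000161 by edgeR's quasi-likelihood test). The KO libraries were lower but far from 0, and which part of the gene was deleted is not given in the sources used here. In the KO peak lists 0 peaks of either mark lay over any member, where in WT 74 of 85 members carried H3K79me2 and 13 carried H3K79me3. The share of all genes with a KO peak was not counted here. In embryos Dot1l was at 277.8 and 255.8 CPM with DMSO and at 221.4 and 214.1 CPM with the inhibitor (log2 fold change -0.29, SE 0.13, adjusted p = 0.582). Markers moved between the mESC genotypes: of 8 pluripotency genes 4 were called lower and 1 higher, with a summed level of 3681 to 3725 CPM in WT and 2952 to 3111 CPM in KO, and of 8 primitive endoderm genes 6 were called higher, with 76.1 to 80.1 CPM in WT and 132 to 141.7 CPM in KO. Of 7 trophectoderm genes 4 were called higher and 2 lower, with 129 to 133.6 CPM in WT and 125.2 to 129.1 CPM in KO. Fibroblast markers, which feeder cells would carry, summed to 166 to 211.8 CPM in WT and 229.2 to 274 CPM in KO, with 4 of 7 tested called higher. None of these markers was at 0 in any mESC library, and their part in the values of the members was not tested. Over all genes tested in mESCs, 22.3% were called higher and 21.6% lower. In embryos the 8 pluripotency genes summed to 1602 to 1684 CPM with DMSO and 1116 to 1276 CPM with the inhibitor, with none called. Primitive endoderm genes summed to 417 and 443.9 CPM with DMSO and 384 and 427.6 CPM with the inhibitor. Trophectoderm genes summed to 306.3 and 313.9 CPM and to 250.2 and 297.7 CPM. For oocyte genes the sums were 97.25 and 91.33 CPM and 109.7 and 89.13 CPM.

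Promoter sequences (RefSeq, GRCm38.p6; 250 bases before to 50 bases after the start) matched 70 of the 85 members. NRF1, ETS factors such as GABP and YY1 are transcription factors long tied to chain genes, and their core letters were searched on both strands: the NRF1 core, which stands in capitals in the Atp5g2 and Ndufb4 sequences, CCGGAAG for ETS and AAGATGGC for YY1. The NRF1 letters occurred in 16 of 70 member promoters (22.9%), against 4.78% of 27025 promoters overall and 8.33% of those of genes tested in mESCs. The ETS letters occurred in 14 (20.0%, against 9.12% and 14.5%) and the YY1 letters in 8 (11.4%, against 2.88% and 3.83%). At least 1 of the 3 was found in 34 members (48.6%, against 15.2% and 23.9%), in 20 of 38 promoters of complex I, 3 of 5 of complex III, 3 of 10 of the common complex IV subunits, 8 of 13 of complex V and 0 of 4 of the complex IV tissue isoforms. The tissue isoforms also held few CpG sites, with a median of 8.5 in the 300 bases against 19 over all members. The ETS and YY1 strings can share the letters AAG, and the NRF1 string can read the same on both strands. The GC box GGGCGG, also searched on both strands, was found in 42.9% of member promoters, 35.9% of all promoters and 56.5% of those of tested genes. A match is a string of letters and was not tested as a binding site.

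The 120 bases upstream of the start are shown for 4 members with such letters, in capitals, and for 3 members without them whose RNA differed between the genotypes. Among the 4 with letters, the RNA of Atp5g2 (log2 fold change -0.37) and Cox6a1 (0.21) was also called different. Atp5g2, Ndufb4 and Cox6a1 carry NRF1 letters, Cox6a1 and Uqcrh carry ETS letters close to the start, and Cox7a1, Cox6b2 (tissue isoforms) and Cox7b (on chromosome X) have none of the 3 in this window.
Atp5g2 (chr15:102671048-102671167, minus strand): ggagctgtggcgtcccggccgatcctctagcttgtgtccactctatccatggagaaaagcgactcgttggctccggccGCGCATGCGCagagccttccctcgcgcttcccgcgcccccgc
Ndufb4 (chr16:37654369-37654488, minus strand): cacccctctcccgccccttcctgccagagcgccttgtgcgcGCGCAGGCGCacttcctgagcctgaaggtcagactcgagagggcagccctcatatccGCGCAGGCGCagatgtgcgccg
Cox6a1 (chr5:115348959-115349078, minus strand): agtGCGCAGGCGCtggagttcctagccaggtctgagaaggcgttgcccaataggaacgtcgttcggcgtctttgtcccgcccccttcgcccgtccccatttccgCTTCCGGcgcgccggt
Uqcrh (chr4:116075071-116075190, minus strand): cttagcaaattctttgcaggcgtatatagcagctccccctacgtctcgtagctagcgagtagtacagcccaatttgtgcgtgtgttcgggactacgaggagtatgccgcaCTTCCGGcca
Cox7a1 (chr7:30184051-30184170, plus strand): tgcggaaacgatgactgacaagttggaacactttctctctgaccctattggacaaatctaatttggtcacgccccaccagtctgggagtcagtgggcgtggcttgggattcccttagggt
Cox6b2 (chr7:4753095-4753214, minus strand): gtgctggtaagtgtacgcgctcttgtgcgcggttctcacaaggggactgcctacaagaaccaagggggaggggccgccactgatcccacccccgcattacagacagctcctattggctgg
Cox7b (chrX:106015580-106015699, plus strand): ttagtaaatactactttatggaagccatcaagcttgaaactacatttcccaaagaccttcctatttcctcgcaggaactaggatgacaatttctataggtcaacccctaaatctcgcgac

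Nearly all members carried H3K79me2 in WT mESCs. A gene was counted as marked when its body overlapped, by at least 1 bp, a region found in both WT lists, and this held for 74 of 85 members (87.1%), against 42.6% of the 18555 tested genes with a position. All 8 members of complex III and all 14 of complex V were marked, as were 39 of 43 of complex I and 13 of 20 of complex IV. Every common complex IV subunit was marked. The complex IV tissue isoforms were marked in 1 of 8 cases, Ndufa4l2, whose body overlaps Shmt2.

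Marking rose with expression in all genes, and the members lie high in that order. When tested genes with a position were split into quintiles (equal groups) by their WT CPM, which is not corrected for gene length, 32 of 32 members in the highest quintile were marked (93.2% of all genes there) and 37 of 39 in the next (75.3%). In the middle quintile 5 of 8 were marked (34.1%), and the 3 members in the lowest quintiles were unmarked. Counts of 5 of 8 members and fewer are small, and the share of the highest quintile lies near that of all genes.

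**Figure D1:**
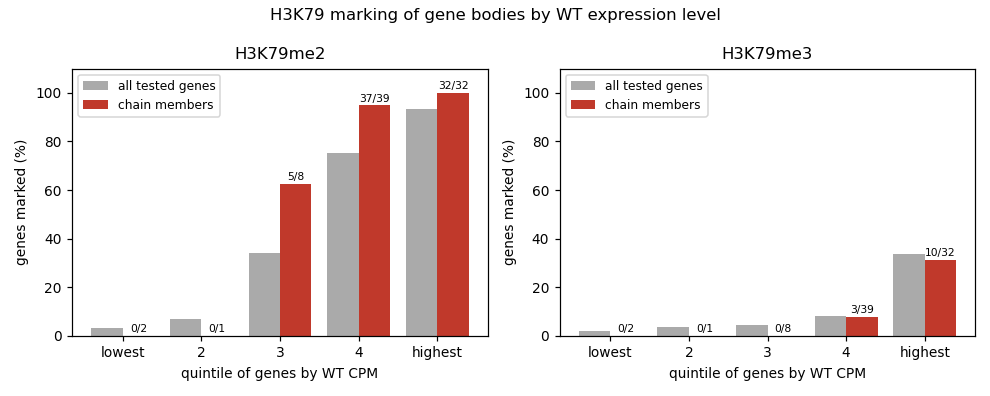
Share of genes (%) marked by H3K79me2 (left) and H3K79me3 (right) in WT mESCs, by quintile of WT CPM, for all tested genes (grey) and chain members (red, with the number marked of the number present). For H3K79me2 the member bars stand at or above the grey bars in the upper 3 quintiles, 32 of 32 in the highest, and for H3K79me3 they stand near the grey bars, 10 of 32 against 33.8% in the highest.

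The members that lacked H3K79me2 fell into 2 kinds. The first were tissue isoforms of complex IV: Cox4i2 (a lung isoform), Cox6a2, Cox7a1 and Cox8b (heart and muscle isoforms), and Cox6b2, Cox7b2 and Cox8c (testis isoforms). Cox7a1 had a peak in WT replicate 1 alone. The second were expressed complex I genes: the assembly factors Ndufaf3, Ndufaf5 and Ndufaf7 and the iron-sulphur core subunit Ndufs8. These 4 were transcribed at 7.50 to 8.26, 11.1 to 11.9, 22.9 to 24.1 and 22.8 to 24.0 CPM in WT.

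The chain genes are short, and the mark filled much of them. The median marked member had 59.2% of its body covered and was 7.34 kb long, against 24.0% and 24.37 kb for marked genes overall. Coverage was highest in Atp5l (97.5%), the membrane subunit g of the ATP synthase, and in Cox8a (95.9%) and Cox7c (95.5%), small complex IV subunits. It was lowest in Ndufa10 (5.9%) and Ndufa9 (6.0%), accessory subunits of complex I with long genes. The highest enrichment over a member in WT replicate 1, by the authors' own value, ran from 2.92 to 13.25 with a median of 6.31, the highest being that of Cox8a.

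Placed around the start, the mark began just inside the gene. Of the 70 members with a promoter entry, 1.43% were covered at the start itself, 48.6% at 250 bases, 87.1% at 1250 bases and 17.1% at 7000 bases downstream. Of these members 32 are shorter than 7000 bases, so that the last point lies past their end. Over all 13550 tested genes with an entry, coverage was 33.2% at 1250 bases and 34.4% at 1500 bases. Members and all genes were not matched here for expression level.

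**Figure D2:**
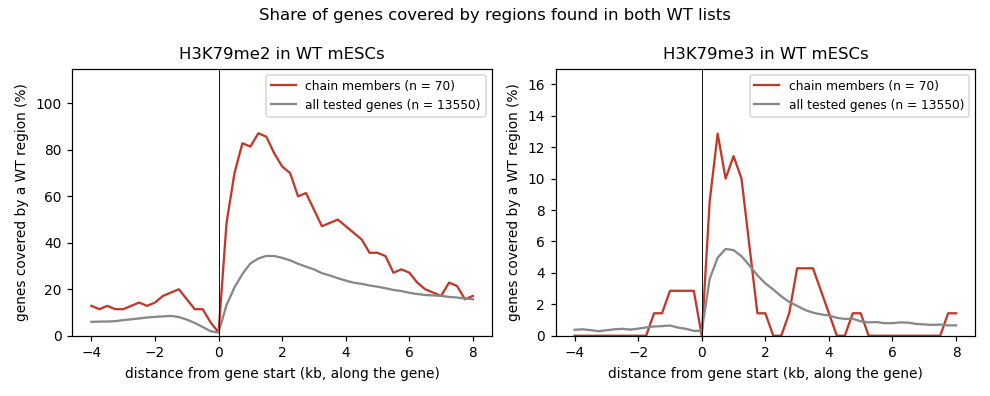
Share of genes (%) covered by a region found in both WT lists at each distance (kb) from the gene start, for chain members (red, n = 70) and all tested genes (grey, n = 13550), for H3K79me2 (left) and H3K79me3 (right). H3K79me2 covers 1.43% of members at the start and 87.1% at 1250 bases, and H3K79me3 peaks at 12.9% of members at 500 bases.

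H3K79me3 was found over 13 of 85 members (15.3%, against 10.3% of tested genes), and all 13 also carried H3K79me2. They were 4 genes of complex V (Atp5a1 and Atp5b, the alpha and beta subunits of the catalytic head, Atp5c1, the gamma subunit of the rotor, and Atp5l), 5 of complex IV (Cox5a, Cox7a2l, Cox7b, Cox7c, Cox8a), 3 of complex III (Uqcr10, Uqcrq and the Rieske iron-sulphur protein Uqcrfs1) and 1 of 43 in complex I (Ndufa13). Cox7c (59.6%) and Cox8a (56.1%) had the largest share of their bodies covered by H3K79me3. Of the 13, 10 stood in the highest quintile of expression, where 33.8% of all genes carried the mark and 10 of 32 members did. The WT H3K79me3 lists differ in length, and WT replicate 1 alone gave 33 marked members (38.8%, against 26.8% of genes) and WT replicate 2 alone gave 16 (18.8%, against 11.6%).

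Changes of the chain genes between KO and WT mESCs were mostly small, and how many passed the test depended on the scaling between libraries. With TMM scaling, 25 of the 82 members tested in mESCs were called at an adjusted p under 0.05 (edgeR, Benjamini-Hochberg over all 19532 genes tested), 11 higher and 14 lower in KO. That is 30.5%, against 43.9% of all genes called; upper-quartile scaling gave 43.9% of members against 44.4% of all genes, and library totals without TMM gave 51.2% against 46%. For higher calls the background was 22.3% and for lower calls 21.6%. At an unadjusted p under 0.05 there were 33 of 82 members, against 50.6% of all genes. The median log2 fold change of the members was -0.01, against 0.00 over all genes, and the median size of the change was 0.11, against 0.24. Only 6 members were called with a size of at least 0.5, where 19.5% of all genes were.

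The same was read by level of expression, with TMM scaling. Among the quintile of genes with the highest WT level, 7 of 33 members were called, against 58.4% of all genes, and in the next quintile 15 of 40, against 53.0%. The median size of change of the members in these quintiles was 0.07 and 0.13, against 0.15 and 0.17 of all genes. These shares were not tested.

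**Figure D3:**
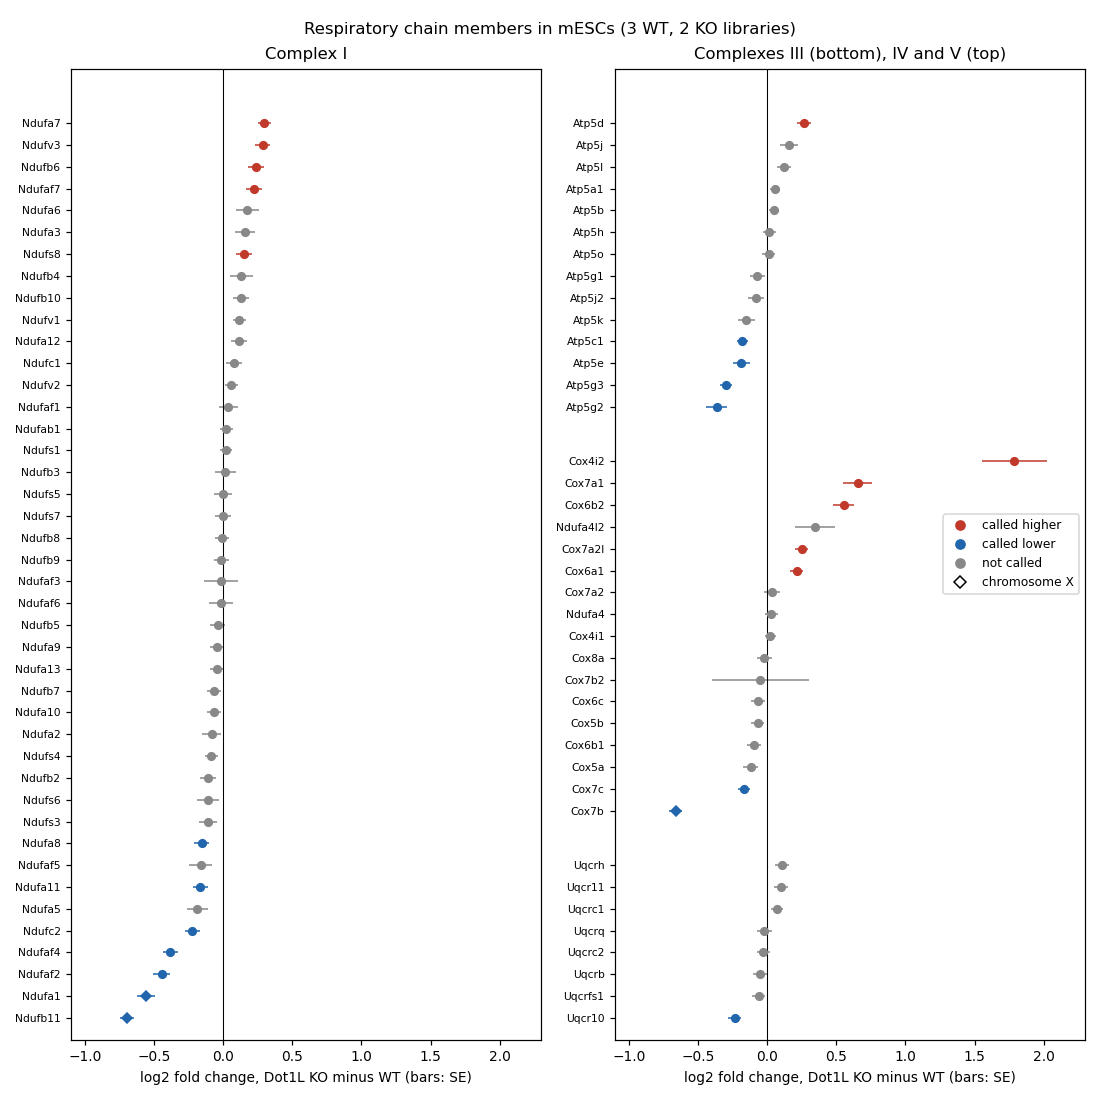
Log2 fold change (KO minus WT, with standard error) of the tested members in mESCs (1 not shown), complex I on the left and complexes III, IV and V on the right; red and blue points are called higher and lower, grey points are not called, diamonds lie on chromosome X. Most points lie close to 0, the 3 diamonds lie between -0.70 and -0.56, and Cox4i2 lies at 1.79.

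The split between higher and lower also depended on how libraries were scaled. With TMM it was 11 higher and 14 lower. Upper-quartile scaling gave 26 higher and 10 lower, where 28.2% of all genes were called higher and 16.2% lower. Library totals without TMM, an alternative chosen after seeing the data, gave 35 higher and 7 lower, where 32.2% of all genes were called higher and 13.8% lower. Library totals moved the median of all genes to 0.11 and that of the members to 0.10, a shift of like size in both. Of the 25 calls, 17 were made in the same direction under all 3 other scalings, among them the 6 largest.

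In complex I, which oxidizes NADH, 12 of 43 members were called, 5 higher and 7 lower (27.9%, against 43.9% of all genes). Of the 7 core subunits, which hold the flavin and the iron-sulphur clusters, 1 was called. Ndufs1, the largest iron-sulphur subunit, was at 143.6, 149.3 and 146.6 CPM in WT and 147.1 and 150.2 CPM in KO. The WT and KO values overlap, and its log2 fold change was 0.02 (SE 0.041, adjusted p = 0.724). The called core subunit was Ndufs8, at 0.15 (SE 0.058, adjusted p = 0.0493), and this call was lost in each of the 5 fits that left out 1 library.

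The 2 accessory subunits of complex I on chromosome X fell most. Ndufb11, of the membrane arm (chromosome X, 20615326 to 20617619, GRCm38.p6), stood at 47.7, 51.0 and 49.4 CPM in WT and at 30.2 and 30.7 CPM in KO. All KO values lie below all WT values, and the genotypes likewise do not overlap in 62.5% of all genes tested. The mean went from 49.4 ± 1.66 (SD, n = 3) to 30.5 ± 0.362 (SD, n = 2), a log2 fold change of -0.70 (SE 0.052, edgeR adjusted p = 2.97e-07). Ndufa1, a small membrane-arm subunit needed for assembly (chromosome X, 37187588 to 37191238), was at 30.1, 32.5 and 32.2 CPM in WT and at 20.4 and 22.5 CPM in KO. Here too the genotypes do not overlap, and the log2 fold change was -0.56 (SE 0.065, adjusted p = 1.58e-05). Both genes overlap another X gene, Ndufb11 with Rbm10 (-0.67) and Ndufa1 with Rnf113a1 (-1.16), and whether counting used strand is not given in the sources used here.

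Of the other accessory subunits, Ndufa7 and Ndufv3 of the matrix arm and Ndufb6 of the membrane arm rose. Ndufa7 was at 61.5, 64.6 and 60.9 CPM in WT and 76.4 and 76.8 CPM in KO (0.30, SE 0.047, adjusted p = 0.000228). Ndufv3 rose by 0.29 and Ndufb6 by 0.23. Ndufc2, Ndufa11 and Ndufa8 of the membrane arm were lower, at -0.22, -0.17 and -0.16. The call of Ndufb6 was lost without KO replicate 2, that of Ndufa11 without WT replicate 2, WT replicate 3 or KO replicate 1, and that of Ndufa8 without any 1 of the WT libraries or KO replicate 1. These 6, the other called members with changes under 0.5 and the assembly factors were named after their values were seen.

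The assembly factors of complex I split. Ndufaf2, which binds an assembly intermediate and leaves the finished complex, was at 23.8, 24.6 and 25.2 CPM in WT and 17.7 and 18.3 CPM in KO. Every KO library was lower, and the log2 fold change was -0.44 (SE 0.062, adjusted p = 8.4e-05). Ndufaf4, an early assembly factor, changed by -0.38 (SE 0.054, adjusted p = 8.96e-05). Ndufaf7, an arginine methyltransferase that acts during assembly, rose by 0.22 (adjusted p = 0.00768). Ndufaf1, Ndufaf3, Ndufaf5 and Ndufaf6 were not called, with values of 0.04, -0.01, -0.16 and -0.02.

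**Figure D4:**
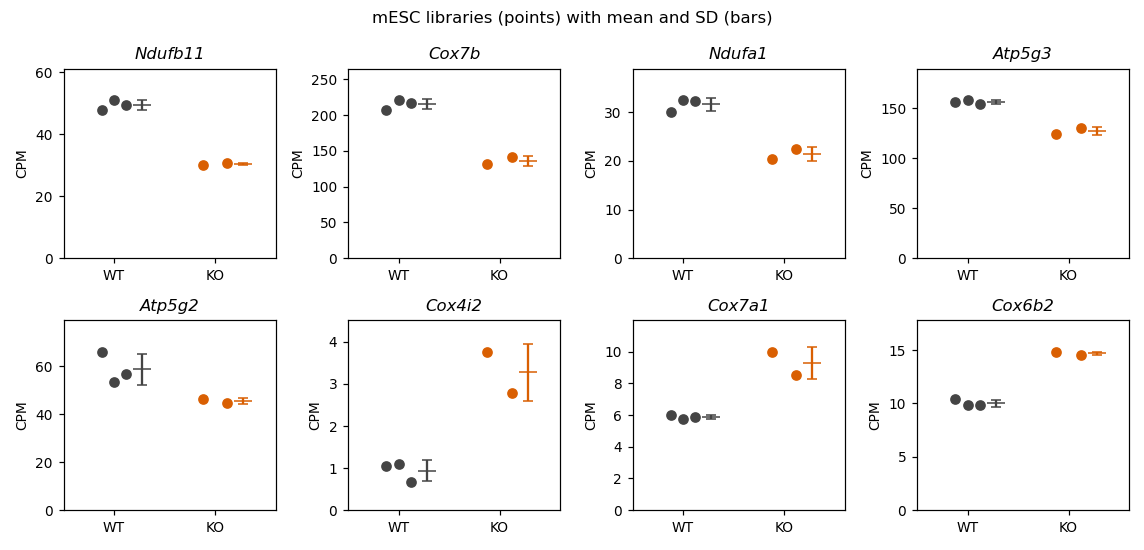
CPM of 8 members in each mESC library (points; 3 WT, 2 KO), with the mean and SD of each genotype beside them. Each panel starts at 0, and in all 8 panels the KO points lie wholly above or wholly below the WT points. The 8 were picked from the called members, and the genotypes do not overlap in 62.5% of all genes tested.

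Complex III passes electrons from ubiquinol to cytochrome c. Of its 8 members only Uqcr10, a small membrane subunit, was called (12.5%, against 43.9% of all genes). With so few members the share is coarse. It was at 49.4, 47.7 and 49.1 CPM in WT and at 41.4 and 41.3 CPM in KO. The KO values lie below all WT values, and the log2 fold change was -0.24 (SE 0.048, adjusted p = 0.00141). Uqcrc2, a core protein, stood at 117.9 to 128.5 CPM in WT and 119.7 to 122.7 CPM in KO, and the Rieske protein Uqcrfs1 differed by -0.06 (adjusted p = 0.305).

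Complex IV, cytochrome c oxidase, showed the widest range. Of 17 tested members 5 were called higher and 2 lower (41.2% called, near the 43.9% of all genes). Among the 12 common subunits, Cox7b on chromosome X (106015700 to 106022450) changed most. It was at 207.5, 220.8 and 217.4 CPM in WT and 131.3 and 141.0 CPM in KO. No KO value reached a WT value, and the log2 fold change was -0.66 (SE 0.047, adjusted p = 1.79e-07). Cox7b carried both marks in WT. Cox7c, another small subunit, was at 180.0 to 194.3 CPM in WT and 164.1 and 172.1 CPM in KO (-0.17, adjusted p = 0.00986), a call that was lost without WT replicate 2. Cox6a1, the common form of subunit 6a, was at 49.9, 50.1 and 51.6 CPM in WT and 60.4 and 56.6 CPM in KO (0.21, SE 0.049, adjusted p = 0.00366).

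The X members lie near the median of their chromosome. Of 734 tested genes on chromosome X, 444 were called lower (60.5%) and 35 higher, with a median log2 fold change of -0.57, and -0.65 among the 596 at 1 CPM or more. Ndufb11, Cox7b and Ndufa1 stood at -0.70, -0.66 and -0.56. The part of this chromosome-wide difference in the 3 members was not tested. Without them, 22 of 79 autosomal members were called, 11 in each direction (27.8%, against 43.9% of all genes with chromosome X included). A separate fit of autosomal genes alone called 44.5% of its genes.

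Of the 8 tissue isoforms of complex IV, 5 could be tested and 3 of them were called higher, where 22.3% of all genes were. Cox4i2, the lung isoform of subunit 4 that is induced by low oxygen, had 29, 36 and 19 estimated counts in WT and 107 and 86 in KO, or 0.661 to 1.11 CPM and 2.80 to 3.76 CPM. All KO values are above all WT values, and the log2 fold change was 1.79 (SE 0.23, adjusted p = 4.89e-05). Its body overlaps Bcl2l1, which was not called (0.02, adjusted p = 0.785). The common form Cox4i1 stood at 310.5, 321.1 and 312.9 CPM in WT and 309.4 and 329.8 CPM in KO, and these values overlap (0.02, SE 0.041, adjusted p = 0.699).

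Cox7a1, the heart and muscle isoform of subunit 7a, was at 6.01, 5.78 and 5.85 CPM in WT and at 9.97 and 8.55 CPM in KO. The genotypes do not overlap (0.65, SE 0.11, adjusted p = 0.00026). Cox7a2, the form found in most tissues, was not called (0.04, adjusted p = 0.649). Cox7a2l, a related protein that joins complexes III and IV into supercomplexes, rose from 75.6 to 80.0 CPM in WT to 89.9 and 94.1 CPM in KO (0.25, SE 0.048, adjusted p = 0.000995).

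Cox6b2, the testis isoform of subunit 6b, was at 10.4, 9.84 and 9.85 CPM in WT and 14.8 and 14.6 CPM in KO. The KO values are higher without overlap (0.55, SE 0.078, adjusted p = 9.16e-05), while the common form Cox6b1 was not called (-0.10, adjusted p = 0.142). Cox7b2 stayed at 13 to 17 estimated counts in every library. Cox6a2, Cox8b and Cox8c were at or below 0.351 CPM in all 5 libraries and were not tested. Ndufa4l2, a paralog of Ndufa4 that is induced by low oxygen, was at 14.2 to 16.9 CPM in WT and at 24.2 and 15.3 CPM in KO, so that 1 KO library lies above WT and the other within it (0.34, adjusted p = 0.0717). The 4 muscle markers summed to 21.2 to 22.7 CPM in WT and 29.3 to 31.1 CPM in KO, and none was at 0. Of these 4, 2 were called higher, where 22.3% of all genes were. Their part in the isoform values was not tested.

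In complex V 5 of 14 members were called, 1 higher and 4 lower (35.7%, against 43.9% of all genes). The alpha and beta subunits of the catalytic head were not called, and 2 of the 3 genes of the proton-driven ring fell. Atp5b, the catalytic beta subunit, was at 1174.7, 1175.2 and 1162.4 CPM in WT and 1211 and 1209 CPM in KO (0.05, SE 0.032, adjusted p = 0.261). Atp5a1, the alpha subunit, was also not called (0.05, SE 0.036, adjusted p = 0.241). The KO values of both lie just above the WT values, a difference that did not pass the test.

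The 3 genes Atp5g1, Atp5g2 and Atp5g3 encode the same mature c subunit of the membrane ring. Atp5g3 was at 156.5, 158.0 and 154.6 CPM in WT and 124.0 and 130.0 CPM in KO. Its KO values are lower without overlap (-0.30, SE 0.042, adjusted p = 9.14e-05). Atp5g2 was at 65.9, 53.3 and 56.8 CPM in WT and 46.4 and 44.6 CPM in KO, also without overlap (-0.37, SE 0.076, adjusted p = 0.00165). Atp5g1 was at 82.8 to 83.1 CPM in WT and 73.6 and 84.4 CPM in KO, where 1 KO library lies on each side of WT (-0.07, adjusted p = 0.343).

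Of the 3 subunits of the central stalk, which turns with the ring, Atp5d (delta) rose by 0.27 (adjusted p = 0.000886) and overlaps Cbarp, which was also higher (0.29, adjusted p = 0.00616), while Atp5c1 (gamma) and Atp5e (epsilon) were lower, at -0.18 and -0.19 (adjusted p = 0.00302 and 0.0278). The call of Atp5e was lost without WT replicate 1, WT replicate 3 or KO replicate 1. None of the peripheral stalk genes Atp5h, Atp5j and Atp5o or the membrane genes Atp5j2, Atp5k and Atp5l was called.

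Set beside their marking in WT, members with both marks counted 1 higher and 4 lower of 13 (median -0.05), members with H3K79me2 alone 5 higher and 10 lower of 61 (median -0.01), and tested members with neither mark 5 higher and 0 lower of 8 (median 0.19). Over all genes the shares called higher and lower were 13.4% and 47.1% with both marks, 18.4% and 30.8% with H3K79me2 alone, and 26.9% and 12.6% with neither. The 5 unmarked members that rose were Cox4i2, Cox7a1, Cox6b2, Ndufaf7 and Ndufs8. With any of the NRF1, ETS or YY1 strings 3 of 34 were called higher and 6 lower (median -0.014), and without them 7 and 8 of 35 (median -0.015). Over all genes tested 22.3% were called higher and 21.6% lower. Shares of all genes with and without these strings were not counted, and the split was not tested.

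The rest of the pathway was read from lists fixed beside the members. Of 13 chain genes encoded in mitochondrial DNA, 2 were called higher (mt-Co3 at 0.32 and mt-Nd6 at 0.29) and 1 lower (mt-Nd1 at -0.29). Of 10 genes of complex II and the electron carriers, 2 were called higher (Cycs, cytochrome c, at 0.26 and Sdhc at 0.24) and 2 lower (Etfb, of the electron transfer flavoprotein, at -0.42 and Sdha at -0.13). Of 36 assembly factors outside the rule 4 were called higher and 10 lower, the largest change being that of Pet117, a complex IV assembly factor, at -1.48. Among 13 regulators of chain genes 2 were called higher and 4 lower, with a median of -0.042 and a range of -0.565 to 0.311. Examples from the lower side are Nrf1 itself at -0.30 and the GABP subunit Gabpb2 at -0.57.

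For fuel use upstream of the chain, 2 of 14 tricarboxylic acid cycle genes were called higher and 4 lower, with the X-linked Idh3g at -0.75. Of 21 glycolysis genes 12 were called higher and 3 lower (median 0.23, range -0.518 to 1.425). Pdk1, the kinase that holds back pyruvate dehydrogenase, at 0.82, and Hk2, a hexokinase, at 0.48, are examples outside the rule for named members. Neither holds the largest rise of the list, and the 3 called lower are not named here. The 21 genes summed to 17260 to 17930 CPM in WT and to 19370 and 17700 CPM in KO, so the summed levels overlap. All these lists are read against 22.3% called higher and 21.6% called lower over all genes, and no list test was made.

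In 8-cell embryos no member was called between SGC0946 and DMSO. That is 0 of 82 tested members, where 0% of the 14351 genes tested passed (edgeR, adjusted p under 0.05). At an unadjusted p under 0.05 there were 3 members higher and 2 lower, or 5 of 82, against 4.1% higher, 4.05% lower and 8.15% in all among the genes tested. The median log2 fold change of the members was 0.01, against 0.02 over all genes, with a median size of 0.18 against 0.30. Precision was lower than in mESCs, with a median standard error of 0.24 for a member's log2 fold change against 0.054. DESeq2 called 126 genes and limma-voom 55 over all genes, and 0 members in each.

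The 5 members with the lowest p in embryos belong to complexes I and IV. Ndufb3, a membrane-arm subunit of complex I, was at 12.8 and 12.6 CPM with DMSO and 4.04 and 5.78 CPM with the inhibitor. The inhibitor pools lie below the DMSO pools (-1.37, SE 0.41, edgeR adjusted p = 0.385). Ndufa6, near the join of the 2 arms, was at 22.5 and 23.7 CPM and at 8.54 and 16.7 CPM (-0.87, SE 0.35, edgeR adjusted p = 0.523). Both inhibitor pools are lower, but they differ from each other. Without inhibitor replicate 2 the log2 fold change was -1.44, and without inhibitor replicate 1 it was -0.46.

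Ndufa11 of complex I was at 41.3 and 37.8 CPM with DMSO and 69.5 and 50.5 CPM with the inhibitor (0.60, SE 0.22, edgeR adjusted p = 0.468). Ndufa4, a subunit of complex IV despite its name, was at 27.2 and 24.3 CPM and at 37.5 and 36.5 CPM (0.52, SE 0.24, adjusted p = 0.609). In both the inhibitor pools are higher than the DMSO pools. Cox8c, a testis isoform, had 0 counts in both DMSO pools and 10 and 26 counts in the inhibitor pools, too few for a fold change.

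**Figure D5:**
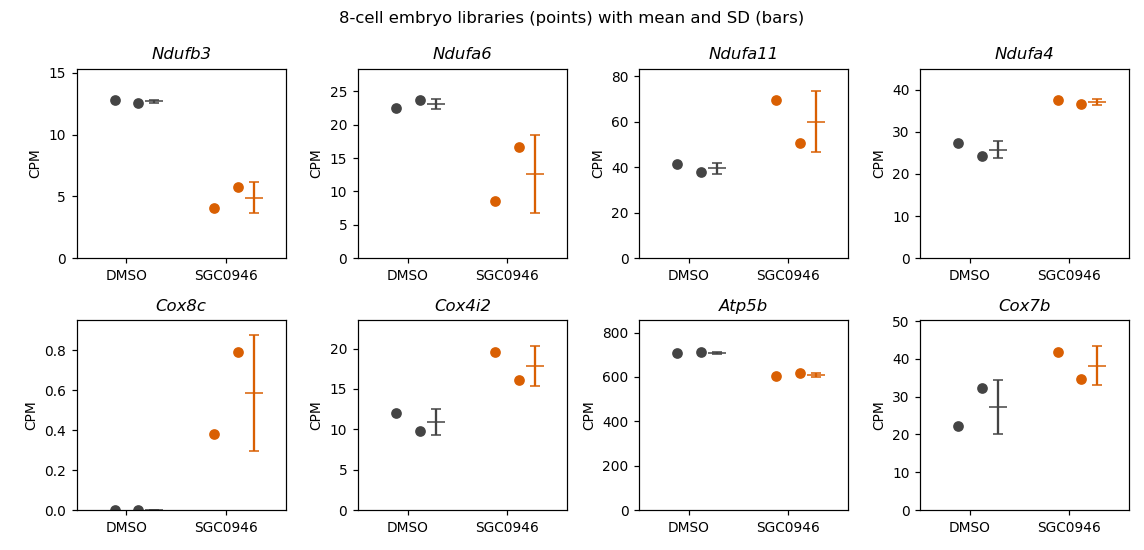
CPM of 8 members in each embryo library (points; 2 DMSO pools, 2 SGC0946 pools) with the mean and SD beside them, each panel starting at 0. None passed the adjusted test; in Ndufb3 both inhibitor pools, at 4.04 and 5.78 CPM, lie below the DMSO pools.

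The genes that moved in the KO did not pass the test in embryos, where 0% of the 14351 genes tested passed, so this does not set them apart. Ndufb11 was at 46.8 and 62.0 CPM with DMSO and 47.8 and 52.7 CPM with the inhibitor (-0.11), Ndufa1 differed by -0.07, and Cox7b, at 22.3 and 32.4 CPM and at 41.8 and 34.6 CPM, differed by 0.48 (SE 0.26, edgeR adjusted p = 0.692). Chromosome X genes had a median of 0.09 in embryos. The KO and inhibitor differ in cell type, genotype, agent, library kit and counting, so the effects were set side by side and their difference was not tested.

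Among the complex IV isoforms, Cox4i2 was at 12.0 and 9.80 CPM in the DMSO pools and 19.6 and 16.1 CPM with the inhibitor (0.71, SE 0.33, edgeR adjusted p = 0.613), with no overlap. Cox6b2, at 1.25 and 2.64 CPM and at 6.44 and 1.76 CPM, and Cox7a1, at 4.24 and 1.39 CPM and at 0.191 and 1.19 CPM, varied widely between pools. Ndufa4l2 had 0 counts in 1 pool of each group. Cox8b and Ndufs5 are listed at 0 in all 4 pools, which by counting error alone allows up to 0.0912 to 0.114 CPM per library, although Ndufs5, an accessory subunit of complex I, stood at 21.9 to 22.4 CPM in WT mESCs, in a table that was made and scaled separately. Eno1, a glycolysis gene of nearly every cell, is also listed at 0 to 8 counts in the embryo table, so a 0 there is given as listed and not as absence of the RNA. Cox6a2 had 12 counts in 1 DMSO pool and 0 in the others.

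In complex V, Atp5b was at 705.9 and 712.0 CPM with DMSO and at 603.7 and 616.4 CPM with the inhibitor, lower without overlap, but not called (-0.22, SE 0.11, edgeR adjusted p = 0.647). Atp5a1 was at 559.3 and 641.8 CPM and at 551.4 and 576.8 CPM (-0.09). Of the c-ring genes Atp5g1 was at -0.37, Atp5g2 at -0.31 and Atp5g3 at 0.22, and none was called. Over the tested members, 34 of 82 had groups that do not overlap, against 39.2% of all genes, and in mESCs 49 of 82, against 62.5%.

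The lists beside the members gave no call in embryos either, where 0% of the 14351 genes tested were called. At an unadjusted p under 0.05 (edgeR), 4.1% of all genes were higher and 4.05% lower. At an unadjusted p under 0.05, the 10 complex II and carrier genes held 0 higher and 1 lower, the 32 tested assembly factors 2 and 1, the 12 tested regulators 0 and 3, the 14 tricarboxylic acid cycle genes 1 and 2 and the 20 tested glycolysis genes 1 and 1. The 13 mitochondrially encoded genes were not analysed here in embryos.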

How the data were processed

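RNA was measured in 5 mESC and 4 embryo libraries, with ribosomal RNA removed from the mESC libraries per the labels' protocols. The mESC table holds expected counts per gene, as deposited by the authors, and the embryo table holds whole counts per gene symbol, as deposited. The submitters' processing notes name kallisto, STAR, HTSeq and mm10 for RNA; for WT replicate 1 they list kallisto alone, and for the other mESC libraries also STAR and HTSeq. The peak lists were deposited per library, with Bowtie2, MACS2 and mm10 in the submitters' processing notes, and hold for each peak the authors' fold enrichment (a ratio), −log10 p and −log10 q, and a score, in deposited form. The annotation, strand setting and peak threshold are not given in the sources used here.

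Estimated counts were rounded to whole numbers. Each comparison was fitted over its own libraries with edgeR 4.0.16 (R 4.3.3; filterByExpr, TMM scaling, quasi-likelihood test) and p-values were adjusted by Benjamini-Hochberg over all genes tested. Genes with an adjusted p under 0.05 count as called. Log2 fold changes are KO minus WT, or inhibitor minus DMSO, and SE is the size of the change divided by the square root of F. The script was tested on simulated data. Marked genes were those whose RefSeq GRCm38.p6 body overlapped, by 1 bp or more, a merged region hit by both WT lists.

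Alternatives were DESeq2 1.42.0 and limma 3.58.1 (voom), other scalings, other filters, a replicate block, each library left out in turn, edgeR's glmTreat with a minimum log2 change of 0.5, autosomal genes only, and other peak rules. Named members were those called with a size of at least 0.5 and a mean of 1 CPM or more (where none was called, the 5 with the lowest p), members on chromosome X, isoform families, catalytic subunits, the member of most CPM per complex, members unmarked by H3K79me2 or marked by H3K79me3, and members at 0. The members and lists were chosen with earlier results of these data known. The values of 1 member are not reported here, though counts over the members include it.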

Additional observations from a re-analysis of the deposited data

How the results depend on the processing

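Of the 25 members called in mESCs, 19 were called in the same direction in all 5 fits that left out 1 library and 17 under all 3 other scalings. DESeq2 kept 21 and limma-voom 24. Leaving out 1 library gave 21 to 32 called members, with 10 to 15 higher, 11 to 22 lower and 25 to 37 at an unadjusted p under 0.05, where 34.7 to 42% of all genes were called; the 22 lower came without KO replicate 2. Upper-quartile scaling gave 26 higher. Library totals without TMM, added after seeing the data, gave 42 called, 35 higher and 7 lower. The test against a log2 fold change of 0.5 gave 3 called (9.65% of all genes), 1 higher and 2 lower, and 4 at an unadjusted p under 0.05, since it asks for a larger change. In embryos leaving out 1 library left 1 pool in an arm, so the calls of those fits are not counted here. Where an arm kept 1 library, in mESCs too, it was assumed to vary like the others. H3K79me2 marked 42 members (49.4%, against 9.79% of genes) when 50% of the body had to be covered. H3K79me3 marked 33 (38.8%, against 26.8%) with the list of WT replicate 1 alone, 2 (2.4%, against 0.668%) at 50% coverage and 6 (7.1%, against 6.06%) at a −log10 q of at least 5.

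Deviations of same-numbered libraries from their group mean correlated at 0.007 and -0.026 in mESCs and at 0.052 in both embryo pairs. The values of the embryo pairs are equal by construction. Whether the replicate numbers pair the samples is not given, and these correlations cannot decide it. A replicate block gave 28 called members in mESCs, 14 in each direction, of 8160 genes, and 0 in embryos, of 171 genes. With the block Cox7b2 was at 0.071.

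Alternatives were tabulated for the named members alone, 42 in mESCs and 36 in embryos; sign changes among them concerned members that were not called, and other members near 0 were not tabulated. With library totals in mESCs, Atp5g1 was at 0.037, Cox6b1 at 0.011, Cox7b2 at 0.057, Cox8a at 0.087, Ndufaf3 at 0.095, Uqcrc2 at 0.081 and Uqcrfs1 at 0.046. With upper-quartile scaling Cox7b2 was at 0.016, Cox8a at 0.045, Ndufaf3 at 0.052, Uqcrc2 at 0.039 and Uqcrfs1 at 0.005. In embryos library totals put Atp5a1 at 0.001, Cox4i1 at 0.019, Ndufa1 at 0.023, Ndufaf5 at 0.027 and Ndufs8 at 0.066, and DESeq2, its size factors and limma-voom put Uqcrc1 at -0.002. Beyond the construction of each alternative, the cause was not tested.

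Leaving out 1 library in mESCs, the log2 fold change ran from -0.068 to 0.010 in Cox8a, -0.220 to 0.168 in Ndufaf3, -0.058 to 0.002 in Uqcrc2, -0.120 to 0.071 in Cox7b2, -0.177 to 0.023 in Atp5g1, -0.018 to 0.638 in Ndufa4l2, -0.028 to 0.066 in Cox4i1 and -0.051 to 0.114 in Cox7a2. In embryos it ran from -0.120 to 0.171 in Cox6b1, -0.192 to 0.054 in Ndufa1, -0.116 to 0.157 in Ndufa9, -0.150 to 0.099 in Ndufs8, -0.188 to 0.014 in Atp5a1, -0.686 to 0.206 in Atp5g2, -0.030 to 0.258 in Cox5a and -0.266 to 0.505 in Cox7a2l. It ran from -0.413 to 0.033 in Cox7c, -0.250 to 0.297 in Ndufaf7, -0.304 to 0.104 in Ndufb11, -0.044 to 0.049 in Uqcrc1, -0.063 to 0.172 in Atp5c1, -0.137 to 1.726 in Cox6b2, -0.192 to 0.061 in Ndufaf5 and -6.276 to 0.679 in Ndufa4l2.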
